A study of Mus musculus with 2 samples.

Results

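The small leucine-rich proteoglycans are secreted matrix proteins, and the 7 examined here are decorin (Dcn), lumican (Lum), fibromodulin (Fmod), biglycan (Bgn), osteoglycin (Ogn), Prelp and asporin (Aspn). They were chosen by gene symbol, and all 7 were found among the 32285 genes of the deposited tables. Their RNA was measured with Visium, which captures polyadenylated RNA from a tissue section on barcoded spots, each spot covering several cells. A PD1 KO heart (PD1 -/-) gave 1 transverse section and a PD1 Het heart (PD1 +/-) gave 1 transverse section. Both C57BL/6 mice had their left anterior descending artery ligated on postnatal day 2, and both hearts were frozen 7 days after surgery. The labels give each genotype for the whole animal and name no Cre or promoter, and no wild-type or unoperated heart was analysed here.

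Members of this family have a core of leucine-rich repeats that binds fibrillar collagen, and most of them carry chondroitin, dermatan or keratan sulphate chains. They set the diameter and spacing of collagen fibrils, and several also bind growth factors such as TGF-beta or innate immune receptors. In the heart they are made largely by fibroblasts and valve interstitial cells, and they are laid down with collagen in the scar that follows infarction.

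The promoter windows of 3 members are shown because they mark the range of behaviour described below. Fmod was the member most concentrated in collagen-rich spots, Aspn was the abundant member with the largest difference between the sections, and Prelp varied least with collagen. Each window runs from 250 bases before to 50 bases after the gene's start, 5′ to 3′ on the gene's strand, and comes from RefSeq on GRCm38.p6. Capitals mark matches on either strand to CAGAC, the short SMAD element (Fmod and Prelp), or to the TATA box TATAAA (Aspn).
Fmod, chr1:134037004-134037303, plus strand: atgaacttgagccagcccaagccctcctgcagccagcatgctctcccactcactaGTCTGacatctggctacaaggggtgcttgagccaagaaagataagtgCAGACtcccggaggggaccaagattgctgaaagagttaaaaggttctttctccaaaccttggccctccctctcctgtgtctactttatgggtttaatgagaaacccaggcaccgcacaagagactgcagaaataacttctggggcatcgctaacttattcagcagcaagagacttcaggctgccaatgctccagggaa
Prelp, chr1:133921352-133921651, minus strand: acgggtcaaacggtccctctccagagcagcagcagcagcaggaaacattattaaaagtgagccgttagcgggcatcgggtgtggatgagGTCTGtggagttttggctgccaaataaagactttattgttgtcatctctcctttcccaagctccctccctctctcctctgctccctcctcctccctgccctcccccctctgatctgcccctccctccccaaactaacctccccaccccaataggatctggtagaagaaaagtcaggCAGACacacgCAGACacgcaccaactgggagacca
Aspn, chr13:49544193-49544492, plus strand: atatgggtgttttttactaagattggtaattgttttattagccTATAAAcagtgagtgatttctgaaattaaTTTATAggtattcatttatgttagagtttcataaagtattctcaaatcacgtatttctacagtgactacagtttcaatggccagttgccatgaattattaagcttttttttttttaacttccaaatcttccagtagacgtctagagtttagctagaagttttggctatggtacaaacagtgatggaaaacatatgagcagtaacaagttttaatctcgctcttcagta

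The table held windows for 5 of the 7 genes, and Dcn and Lum had none. The Fmod window held 2 matches to CAGAC or its complement GTCTG, the Prelp window held 3, and the windows of Bgn, Ogn and Aspn held none. Of all 32851 promoter windows, 49.6% held at least 1 such match. The TATA box letters, found at -207 and, on the other strand, at -178 of Aspn, also occurred in the Ogn window, and 13.6% of all windows held them. GGGCGG, the GC box, was present in the Bgn window alone among the 5, against 35.7% of all windows. The AP-1 element TGANTCA was in none of the 5 windows, against 7.81% of all, and the TEAD element CATTCC was in that of Ogn, against 14.7%. These searches describe letters in the windows and say nothing of binding.

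The sections differed in several ways besides genotype, and these bear on every comparison between them. The PD1 KO section kept 851 spots with 23520499 UMIs and a median of 27134 UMIs per spot, and the PD1 Het section kept 811 spots with 12814494 UMIs and a median of 15475. Mitochondrial transcripts made up 15.9% of UMIs in the PD1 KO section and 25.6% in the PD1 Het section. Pdcd1, the targeted gene, had 0 UMIs in both sections, which allows up to 0.128 CPM in the PD1 KO section and 0.234 CPM in the PD1 Het section, so it could not check the labels. Xist had 1 UMI in the PD1 KO section and 541 in the PD1 Het section, and 4 Y-linked genes together had 2900 and 1, so the mice were of opposite sex and sex cannot be told apart from genotype, which bears on X-linked Bgn. Cardiomyocyte, fibroblast, macrophage and endothelial marker lists were all detected in both sections, with no marker at 0. The sections shared 225 spot barcodes, and Visium slides reuse the same barcode set. With 1 section per genotype no test was possible, and 95% intervals cover counting error only.

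The family as a whole was abundant in both hearts. The 7 genes together had 39507 UMIs in the PD1 KO section and 18662 in the PD1 Het section, or 1680 and 1456 CPM, the UMIs of a gene scaled to a common total per section. Visium counts each captured RNA end once, so levels of different genes were compared as UMIs without division by length. Dcn, which binds type I collagen and TGF-beta, was the most abundant member, with 529 CPM in the PD1 KO section and 492 CPM in the PD1 Het section. Bgn, the closest relative of Dcn and a ligand of Toll-like receptors, had 402 CPM in the PD1 KO section and 393 CPM in the PD1 Het section. Both sections thus had the same leading pair at nearly the same CPM.

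Lum, a keratan sulphate proteoglycan that limits fibril thickness, had 339 CPM in the PD1 KO section and 304 CPM in the PD1 Het section. Aspn, a relative of Dcn and Bgn that usually carries no sulphated sugar chain, had 199 CPM in the PD1 KO section and 104 CPM in the PD1 Het section. Ogn, also called mimecan, which takes part in collagen fibril growth, had 151 CPM in the PD1 KO section and 120 CPM in the PD1 Het section. The order of Aspn and Ogn differed between the sections, Aspn standing above Ogn in PD1 KO and below it in PD1 Het. Prelp, which bridges collagen and heparan sulphate of basement membranes, had 31.0 CPM in the PD1 KO section and 29.97 CPM in the PD1 Het section. Fmod, a collagen-binding member that also engages lysyl oxidase, had 28.4 CPM in the PD1 KO section and 14.4 CPM in the PD1 Het section, the lowest of the 7 in both, although its PD1 KO interval overlapped that of Prelp.

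**Figure D1:**
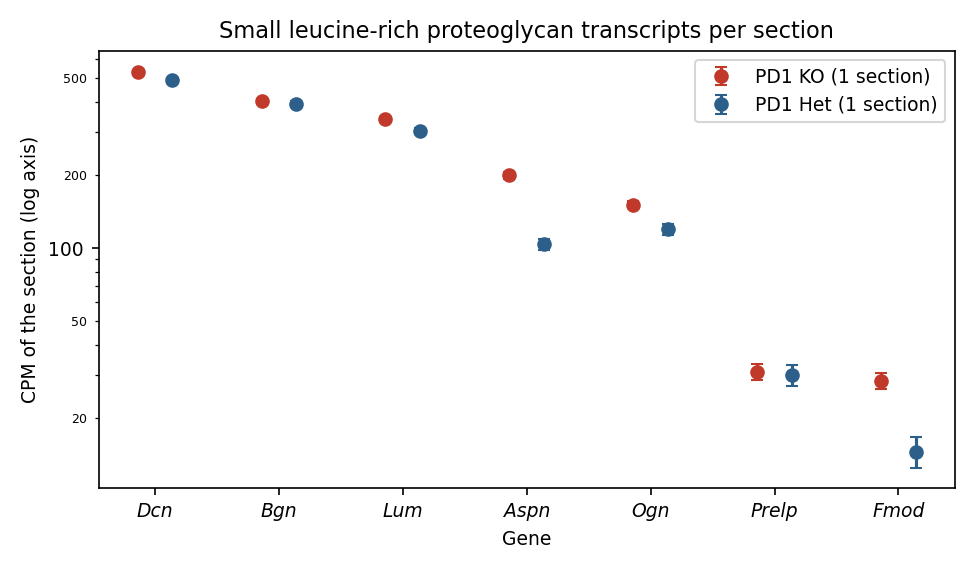
CPM of each member in the PD1 KO section (left of each pair) and the PD1 Het section (right of each pair) on a log axis, 1 section each, with 95% Poisson intervals. Dcn leads at 529 and 492 CPM, and Aspn and Fmod are the pairs that stand furthest apart.

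All 7 members had a higher CPM in the PD1 KO section, but so had most genes. Taken over 11455 genes, each with 100 or more UMIs summed across the sections, the median gene was 1.26-fold higher in PD1 KO than in PD1 Het, a log2 ratio of 0.33. Ratios given as relative are log2 values of PD1 KO over PD1 Het from which this shift was subtracted. Against the median gene, 2 of the 7 members were at least 1.5-fold higher in PD1 KO, where 5.5% of all genes tested were, and 0 of 7 were at least 1.5-fold lower, where 3.3% were. The median relative ratio of the 7 was -0.17, against 0 over all genes tested. In bulk sums such as these, fewer cells of a type and less RNA per cell cannot be told apart.

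The 2 members past the fold were Fmod and Aspn. Fmod had 667 UMIs in the PD1 KO section and 185 in the PD1 Het section, a relative log2 ratio of 0.64 (0.41 to 0.89), or 1.56-fold. Aspn had 4686 UMIs in the PD1 KO section and 1330 in the PD1 Het section, a relative log2 ratio of 0.61 (0.52 to 0.70), or 1.53-fold, just inside the 1.5-fold limit. By plain CPM the PD1 KO values were 1.96 times the PD1 Het value for Fmod and 1.92 times for Aspn. Both genes were also high in spots rich in a list of valve and tendon genes, described below. With the 10% of spots richest in that list left out of each section, a choice made after seeing the data, the relative log2 ratio was 0.39 (-0.04 to 0.83) for Fmod and 0.39 (0.29 to 0.49) for Aspn, and no member reached 1.5-fold. With Thbs4 ignored when those spots were chosen, also added afterwards, the relative log2 ratio was 0.58 (0.19 to 0.99) for Fmod, close to its value in all spots and just under the limit, and 0.48 for Aspn.

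The other 5 members differed little between the sections. Ogn had 3543 UMIs in the PD1 KO section and 1533 in the PD1 Het section, and its relative log2 ratio was 0.00 (-0.09 to 0.09). Lum was at -0.17 (-0.23 to -0.12), Dcn at -0.23 (-0.27 to -0.18), Prelp at -0.28 (-0.47 to -0.10) and Bgn at -0.30 (-0.35 to -0.25) on the relative log2 scale. These 4 were below the median gene on the relative scale and above 0 on the plain CPM scale, where their log2 ratios were 0.16 for Lum, 0.11 for Dcn, 0.05 for Prelp and 0.03 for Bgn. The summed family had a relative log2 ratio of -0.13 (-0.15 to -0.10), and 0.21 by plain CPM.

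The sum of the 6 fibrillar collagen genes used to rank spots behaved otherwise. Col1a1, Col1a2, Col3a1, Col5a1, Col5a2 and Col5a3, which encode the chains of the fibrils these proteoglycans coat, summed to 5433 CPM in the PD1 KO section and 3755 CPM in the PD1 Het section, a relative log2 ratio of 0.20. There were therefore 30.9 (30.6 to 31.3) proteoglycan UMIs per 100 collagen UMIs in the PD1 KO section and 38.8 (38.1 to 39.4) in the PD1 Het section. This ratio within a section is independent of its total UMIs, but it depends on the collagens taken, which did not move together. Relative log2 ratios were 0.54 for Col5a2, 0.46 for Col1a1, 0.38 for Col1a2 and 0.13 for Col5a1. Col3a1, the collagen with the most UMIs (52304 in PD1 KO and 23344 in PD1 Het), was at -0.04, and Col5a3 was at -0.09 (-0.26 to 0.09). Dcn stood at 9.74 per 100 collagen UMIs in PD1 KO and 13.1 in PD1 Het, Bgn at 7.41 and 10.5, and Lum at 6.24 and 8.08. Aspn and Fmod went the other way. Aspn had 3.67 (3.56 to 3.78) per 100 collagen UMIs in PD1 KO and 2.76 (2.62 to 2.92) in PD1 Het, and Fmod had 0.522 (0.483 to 0.563) in PD1 KO and 0.384 (0.331 to 0.444) in PD1 Het.

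The make-up of the family shifted accordingly. Dcn made up 31.5% of the family's UMIs in the PD1 KO section and 33.8% in the PD1 Het section, and Bgn made up 24.0% and 27.0%. Aspn made up 11.9% (11.5 to 12.2) in the PD1 KO section and 7.13% (6.76 to 7.51) in the PD1 Het section. Lum, at 20.2% and 20.8%, and Ogn, at 8.97% and 8.21%, held similar shares in both. Prelp, at 1.84% and 2.06%, and Fmod, at 1.69% and 0.991%, were minor components.

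The members were spread over the tissue in unlike ways. Dcn was found in 848 of 851 PD1 KO spots and 797 of 811 PD1 Het spots, and it took 249 spots in PD1 KO and 200 spots in PD1 Het to hold 50% of its UMIs. Fmod was found in 220 PD1 KO spots (25.9%) and 79 PD1 Het spots (9.74%), and 24 spots in PD1 KO and 14 spots in PD1 Het held 50% of its UMIs. Fmod was thus the most local member, with up to 40 UMIs in a single PD1 KO spot and up to 17 in a single PD1 Het spot. Prelp, with 728 UMIs in the PD1 KO section and 384 in the PD1 Het section, was more scattered, found in 451 PD1 KO spots and 290 PD1 Het spots with at most 7 UMIs in a PD1 KO spot and 5 in a PD1 Het spot. Aspn was found in 812 PD1 KO spots and 600 PD1 Het spots and reached 68 UMIs in a single PD1 KO spot, against 14 in PD1 Het.

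Because the PD1 KO section had more UMIs per spot, these shares were recomputed with every spot thinned to 10000 UMIs, which left 839 PD1 KO and 759 PD1 Het spots. Fmod was then detected in 13.2% (11.0 to 15.7) of PD1 KO spots and 7.25% (5.51 to 9.33) of PD1 Het spots. Aspn was detected in 75.0% (71.9 to 77.9) of PD1 KO spots and 63.1% (59.6 to 66.6) of PD1 Het spots. These were the 2 members whose intervals did not overlap at this depth, and at 5000 UMIs Lum was a further one, with 77.7% (74.8 to 80.5) of PD1 KO spots and 70.3% (67.0 to 73.5) of PD1 Het spots, whereas without thinning 6 members had higher PD1 KO shares with intervals apart. Prelp, detected in 53.0% of PD1 KO spots and 35.8% of PD1 Het spots before thinning, was at 25.0% and 26.1% after it. The share of all genes with intervals apart was not counted, so these counts of members have no background. Thinning equalises UMIs per spot but leaves the lower mitochondrial share and the higher median gene of the PD1 KO section in place.

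Location was read from collagen. Within a section, spots were ordered by the fraction of UMIs that came from the 6 fibrillar collagen genes and cut into 5 bins of equal size, from the poorest (1) to the richest (5). The median collagen share was 1.15% in the highest and 0.211% in the lowest bin of the PD1 KO section, and 0.818% and 0.148% in the PD1 Het section. Other features moved along the same ranking. Macrophage markers had 1067 CPM in the highest and 201 CPM in the lowest bin of PD1 KO, and 549 and 205 CPM in PD1 Het. The mitochondrial share was 12.1% in the highest and 18.0% in the lowest bin of PD1 KO, and 19.5% and 29.1% in PD1 Het. The median UMIs per spot were 23106 and 30868 in PD1 KO, and 14073 and 15878 in PD1 Het. Their part in the gradients was not tested.

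Most members were far higher in collagen-rich spots. In the PD1 KO section 6 of 7 members were at least 2-fold higher in the highest than in the lowest bin, where 9.26% of 10802 genes were, and in the PD1 Het section 7 of 7 were, where 10% of 8609 genes were. The median gene had a log2 gradient of 0.26 in PD1 KO and 0.31 in PD1 Het. The summed family was 4.43-fold (4.28 to 4.58) higher in the highest bin in PD1 KO and 4.26-fold (4.05 to 4.48) higher in PD1 Het. The member just outside the limit was Prelp in the PD1 KO section, at 1.98-fold, and the one just inside was Prelp in the PD1 Het section, at 2.12-fold.

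Fmod had the steepest gradient of the 7 in both sections. From the lowest to the highest bin it had 3.82, 3.87, 4.95, 15.8 and 138 CPM in the PD1 KO section. It had 1.12, 2.66, 3.04, 4.98 and 67.9 CPM in the PD1 Het section, where the lowest bin held 3 UMIs. The highest bin held 79.5% of its UMIs in PD1 KO and 83.2% in PD1 Het. The fold between highest and lowest bin was 36.2 (23.2 to 59.7) in PD1 KO and 60.5 (20.3 to 296) in PD1 Het, ranking 17 among 10802 genes and 3 among 8609. In thinned spots, 38.5% of the highest and 4.73% of the lowest bin held a Fmod UMI in PD1 KO, and 28.5% and 1.27% did in PD1 Het.

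Bgn followed collagen most closely in size. It had 155, 216, 267, 401 and 1152 CPM across the bins of the PD1 KO section, a 7.43-fold (6.90 to 8.02) gradient. It had 169, 230, 230, 359 and 1072 CPM in the PD1 Het section, a 6.34-fold (5.73 to 7.02) gradient. The collagen sum that defined the ranking had gradients of 7.18-fold in PD1 KO and 6.56-fold in PD1 Het. In the highest bin Bgn overtook Dcn as the leading member, with 30.3% of family UMIs against 25.7% for Dcn in PD1 KO, and 33.3% against 29.9% in PD1 Het. In the lowest bin Dcn led, with 36.5% against 18.1% for Bgn in PD1 KO and 36.6% against 22.4% in PD1 Het.

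Dcn and Lum, the broadly spread members, had shallower gradients. Dcn had 314, 389, 475, 608 and 976 CPM in the PD1 KO section and 277, 343, 435, 512 and 962 CPM in the PD1 Het section, gradients of 3.11-fold and 3.48-fold. Lum was at 643 CPM in the highest and 191 CPM in the lowest bin of PD1 KO (3.37-fold), and at 651 and 147 CPM in PD1 Het (4.44-fold). In the highest bin, Dcn and Lum were therefore at almost the same CPM in both sections.

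Aspn and Ogn had steeper gradients in the PD1 KO section than in the PD1 Het section with bins of equal size. Aspn had 88.4, 116, 159, 206 and 500 CPM in PD1 KO, a 5.66-fold (5.11 to 6.28) gradient. It had 64.4, 79.5, 76.3, 112 and 201 CPM in PD1 Het, a 3.12-fold (2.62 to 3.74) gradient. For Ogn the highest and lowest bins had 349 and 86.3 CPM in PD1 KO, 4.04-fold (3.63 to 4.51), and 215 and 74.8 CPM in PD1 Het, 2.87-fold (2.43 to 3.40). For both genes the 2 intervals did not overlap. With common collagen limits, explained below, the log2 gradient of Ogn was 1.96 (1.76 to 2.17) in PD1 KO and 1.72 (1.499 to 1.94) in PD1 Het, which overlap, and that of Aspn was 2.40 (2.21 to 2.60) and 1.65 (1.41 to 1.89), which do not. Prelp was the flattest, at 20.05, 31.9, 32.0, 33.9 and 39.6 CPM in PD1 KO and 22.5, 22.4, 28.9, 31.0 and 47.6 CPM in PD1 Het.

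**Figure D2:**
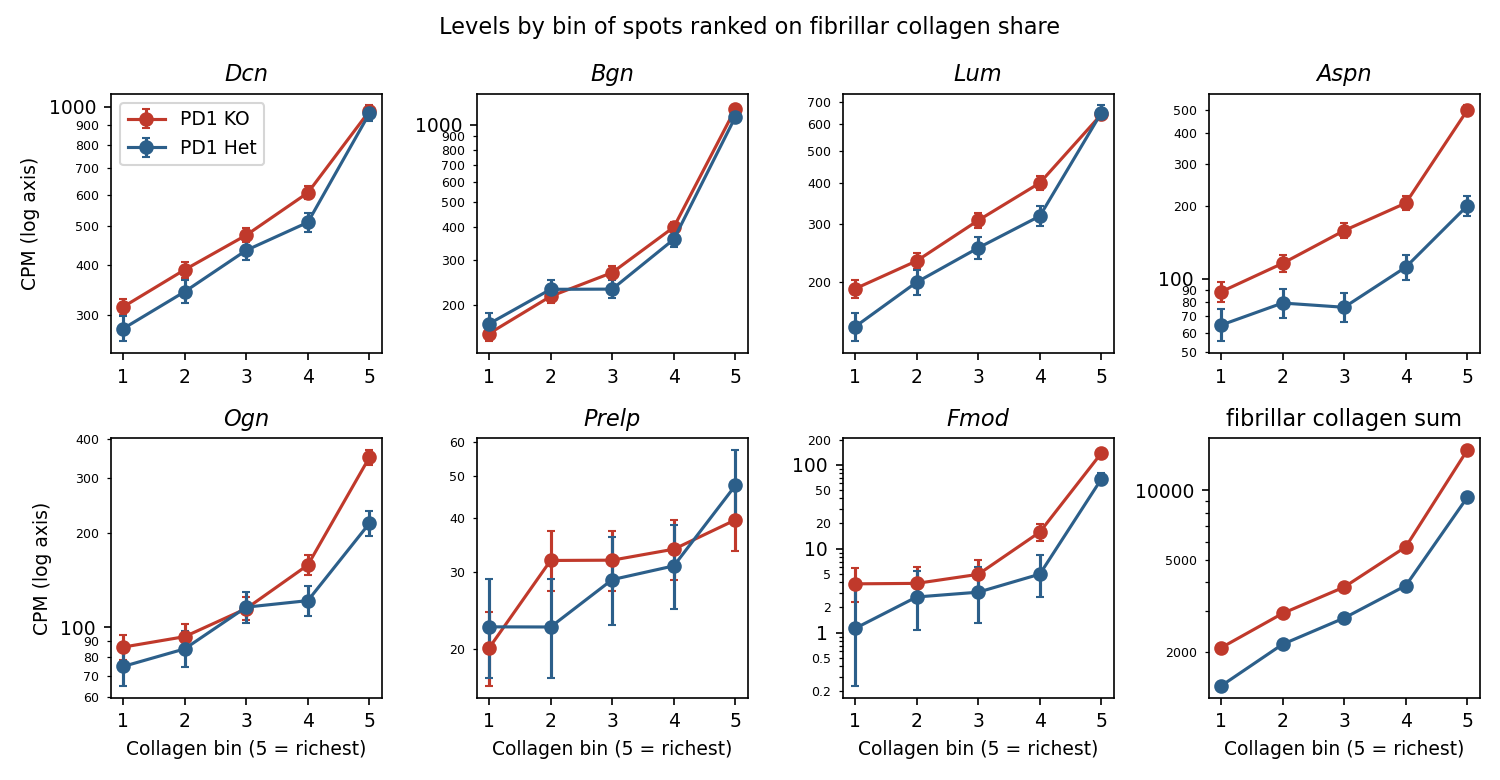
CPM on log axes in each bin of spots ranked by fibrillar collagen share, for the PD1 KO section (red) and the PD1 Het section (blue), with 95% Poisson intervals for the members; the last panel is the collagen sum that set the ranking. Fmod jumps to 138 and 67.9 CPM in the highest bin, Aspn lies higher in PD1 KO in every bin, and Prelp stays between 20.05 and 47.6 CPM.

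The summed family gained less than collagen along the ranking. The family had 41.2, 36.9, 35.7, 32.0 and 25.4 UMIs per 100 collagen UMIs from the lowest to the highest bin of the PD1 KO section, and 53.0, 44.6, 40.8, 37.7 and 34.5 in the PD1 Het section. Part of this order follows from the ranking, since collagen UMIs are both the rank and the denominator. The family's PD1 KO value was the lower one in every bin. Fmod alone rose steeply, from 0.183 per 100 collagen UMIs in the lowest to 0.925 in the highest bin of PD1 KO, and from 0.0789 to 0.727 in PD1 Het. Bgn had 7.45 in the lowest and 7.71 in the highest bin of PD1 KO, and 11.9 and 11.5 in PD1 Het.

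**Figure D3:**
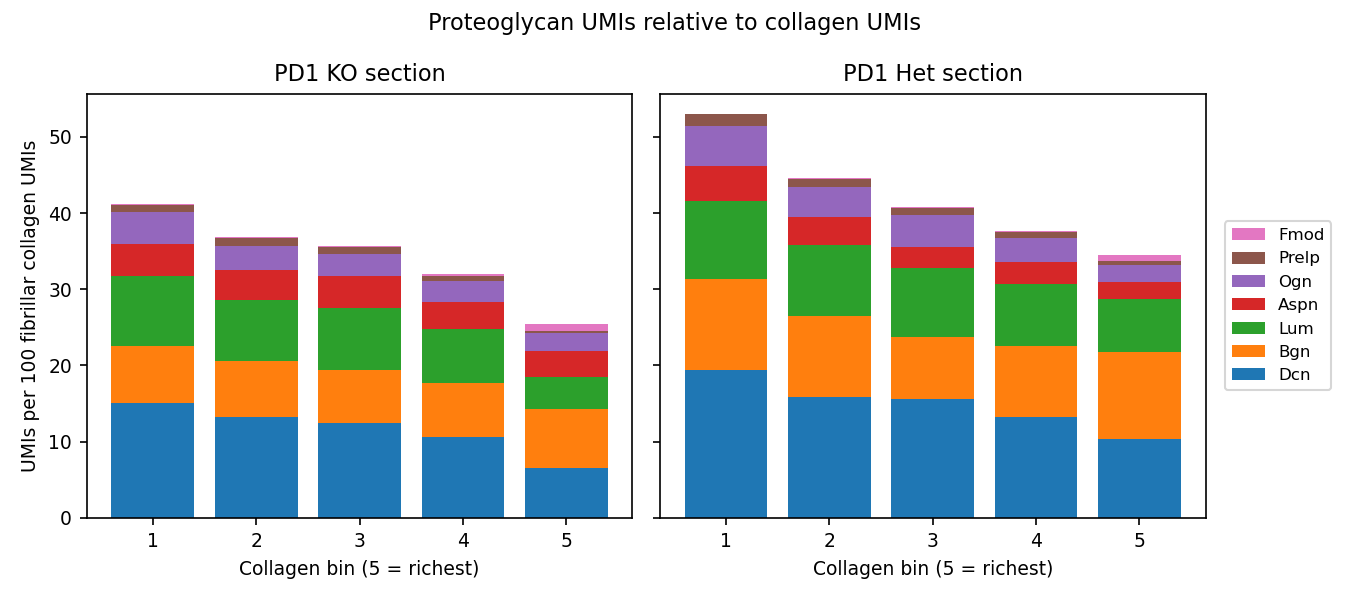
Proteoglycan UMIs per 100 fibrillar collagen UMIs in each collagen bin, stacked by gene, for the PD1 KO section (left) and the PD1 Het section (right). The stack is 25.4 in the highest and 41.2 in the lowest bin of PD1 KO, and 34.5 and 53.0 in PD1 Het.

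Ratios within collagen bins were also set against the median gene of all spots. Aspn differed most between the sections in the richest spots. It had a relative log2 ratio of 0.98 (0.84 to 1.13) in the highest bin and 0.13 (-0.13 to 0.39) in the lowest. Fmod was at 0.69 (0.43 to 0.96) in the highest bin and at 1.33 (0.47 to 2.31) in the fourth bin, where it had 74 UMIs in PD1 KO and 13 in PD1 Het. Ogn was at 0.37 (0.22 to 0.52) in the highest bin. Bgn at -0.23, Dcn at -0.31, Lum at -0.35 and Prelp at -0.60 (-0.96 to -0.23) were below the median gene there.

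The equal-sized bins of the sections do not hold the same collagen levels, so bins with common collagen limits were also used, a choice made after seeing the data. The richest such bin held 217 PD1 KO and 116 PD1 Het spots. Aspn had 435 CPM there in PD1 KO and 215 CPM in PD1 Het, a relative log2 ratio of 0.69 (0.52 to 0.86). Fmod had 109 CPM in PD1 KO and 84.7 CPM in PD1 Het, and its relative log2 ratio of 0.03 (-0.25 to 0.32) was no longer past 1.5-fold. Ogn was at -0.07 (-0.23 to 0.10), against 0.37 in the highest bin of equal size. Dcn was at -0.64, Lum at -0.70, Bgn at -0.72 and Prelp at -0.86 on the relative log2 scale, and the family sum was at -0.50. In this bin Aspn was above the median gene, and Dcn, Lum, Bgn and Prelp lay below it with intervals that excluded 0. The fibroblast marker list, which holds no member, was also lower there in PD1 KO, with 2332 CPM against 2903 CPM in PD1 Het. Over the whole sections its relative log2 ratio was -0.25 (-0.27 to -0.22). Of its 10 genes, 0 were 1.5-fold or more above the median gene and 2 were below, beside 5.5% and 3.3% of all genes tested. The part of fibroblast content in the member values was not tested. In the other 4 common bins Aspn lay between -0.07 and 0.18, with intervals that all spanned 0. The median gene of the richest common bin itself had a log2 ratio of 0.18. Set against it, an alternative also added afterwards, Aspn was at 0.84, Ogn at 0.08, Dcn at -0.49, Lum at -0.55, Bgn at -0.57 and Prelp at -0.71, so of Dcn, Lum, Bgn and Prelp only Prelp stayed 1.5-fold or more below. Set against each bin's own median gene, Aspn lay between 0.01 and 0.24 in the other 4 bins. Its lower limit was then at or just above 0 in the second bin (0.23) and the third (0.24, 0.0098 to 0.47). Fmod was at -0.88 (-1.51 to -0.22) in the fourth common bin, with 62 UMIs in PD1 KO and 33 in PD1 Het, the opposite direction to its value in the fourth bin of equal size.

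**Figure D4:**
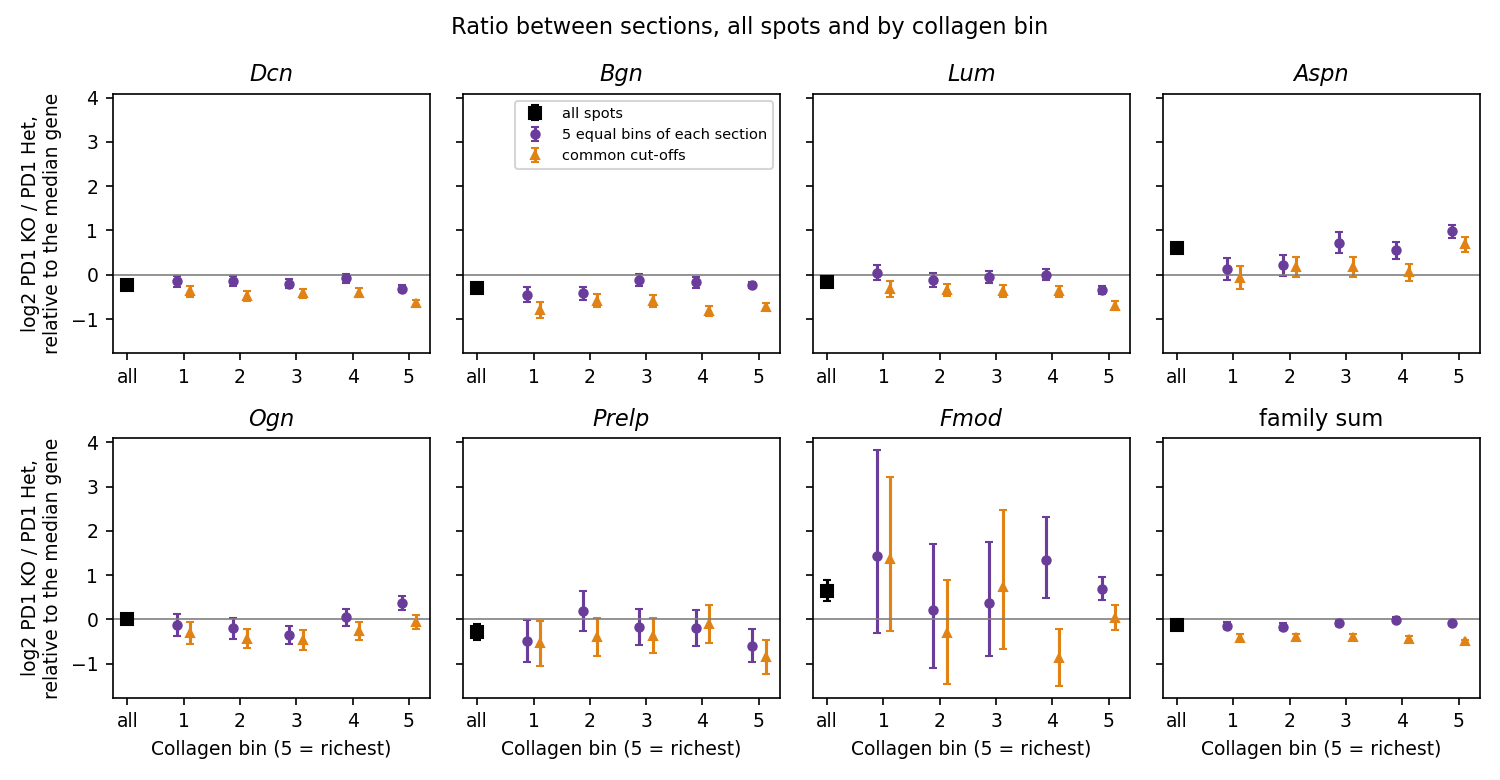
Relative log2 ratio of PD1 KO over PD1 Het with 95% intervals for all spots (black squares), for equal-sized bins of each section (purple circles) and for bins with common collagen limits (orange triangles). Aspn reaches 0.98 in the highest bin and 0.69 in the richest common bin, Fmod 0.69 and 0.03, and Dcn, Lum and Bgn lie lower with common limits than with equal-sized bins.

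Marker genes gave a second reading of location. In each section the 10% of spots richest in a marker list were set against the other 90%. This reading shared many spots with the collagen ranking. The highest collagen bin held 77 of 85 fibroblast-rich spots in PD1 KO and 74 of 81 in PD1 Het. It held 76 of 85 spots rich in the valve and tendon list in PD1 KO and 44 of 81 in PD1 Het. Over 7 members and 10 lists, 24 of 70 values in the PD1 KO section and 21 of 70 in the PD1 Het section were at least 2-fold higher in the marker-rich spots. For fibroblast markers 6 members were in PD1 KO and 7 in PD1 Het, beside 8.06% and 10.8% of all genes. For valve and tendon genes 4 members were in PD1 KO and 3 in PD1 Het, beside 5.38% and 1.92%, and for macrophage markers 5 and 4 were, beside 5.53% and 4.55%. For epicardial markers 4 members were in PD1 KO and 1 in PD1 Het, beside 3.49% and 0.569%, for smooth muscle markers 3 and 2 were, beside 2.53% and 1.95%, and for endocardial markers 2 and 3 were, beside 2.61% and 4.4%. Red blood cell markers gave 0 members in PD1 KO and 1, Fmod, in PD1 Het, beside 0.13% and 0.174%. The lists of ventricular cardiomyocytes (0.037% and 0.348%), endothelium (0.139% and 0.256%) and lymphatic endothelium (0.241% and 0.256%) gave 0 members in both. Spots rich in fibroblast markers (Pdgfra, Tcf21 and others, none of them a member or a fibrillar collagen) were higher in every member, by log2 ratios between 0.88 for Prelp and 3.19 for Fmod in PD1 KO, and between 1.22 for Ogn and 3.47 for Fmod in PD1 Het. In spots rich in ventricular cardiomyocyte markers every member had a log2 ratio below 0, between -2.27 and -0.50 in PD1 KO and between -0.90 and -0.08 in PD1 Het. In PD1 Het the intervals of Fmod (-1.08 to 0.60), Ogn (-0.38 to 0.16) and Prelp (-0.66 to 0.45) spanned no difference.

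Fmod stood highest in spots rich in valve and tendon genes. That list holds Tnmd, Scx, Comp, Thbs4, Chad, Cilp2, Hapln1 and Wif1, taken as markers of tendon and valve matrix cells. Thbs4, which other cells of the injured heart can also make, gave 59.8% of the list's UMIs in PD1 KO and 35.2% in PD1 Het. Chad had 11 UMIs in PD1 KO and 6 in PD1 Het, and Hapln1 had 2 and 3. Comp was itself 61.5-fold higher in the highest than in the lowest collagen bin in PD1 KO and 21.2-fold in PD1 Het. Spots rich in this list were therefore not identified as valve or tendon, and could be collagen-rich scar. Fmod had 256 CPM in the rich spots and 8.59 CPM in the others in PD1 KO, a log2 ratio of 4.90. It had 104 CPM in the rich spots and 5.25 CPM in the others in PD1 Het, a log2 ratio of 4.30. Without Thbs4 in the list, an alternative added after seeing the data, the Fmod log2 ratio was 4.31 in PD1 KO and 4.14 in PD1 Het. The whole list was more abundant in the PD1 KO section, with 74.2 CPM in 466 spots, than in the PD1 Het section, with 33.5 CPM in 224 spots, a relative log2 ratio of 0.82 (0.66 to 0.97). Thbs4 alone had 44.4 CPM in PD1 KO and 11.8 CPM in PD1 Het, and the other genes of the list differed less evenly. Tnmd had 5.19 and 1.72 CPM, Scx 10.8 and 7.34, Wif1 6.80 and 5.23, Comp 4.59 and 4.06, and Cilp2 1.91 and 2.65. Of the 6 list genes with 30 or more UMIs, 2 were 1.5-fold or more above the median gene and 1 was below. The part of this list in the Fmod and Aspn differences was not tested, and the ratios without these spots are given above.

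Within the highest collagen bin the same marker list still separated the members. Spots of that bin rich in valve and tendon genes had 286 CPM of Fmod and the other spots of the bin had 26.9 CPM in PD1 KO, 10.6-fold. In PD1 Het they had 194 and 21.7 CPM, 8.92-fold. Aspn was 2.71-fold higher in these spots in PD1 KO and 2.01-fold higher in PD1 Het, and Bgn was 2.25-fold and 2.32-fold higher. Ogn was 1.65-fold higher in both sections. Dcn was at 0.862-fold in PD1 KO and 1.09-fold in PD1 Het, and the collagen sum was at 1.68-fold and 1.29-fold. Prelp was at 0.968-fold in PD1 KO and 1.42-fold in PD1 Het, with intervals that spanned no difference. Fmod, Bgn, Aspn and Ogn were thus higher in this subset of collagen-rich spots in both sections, with intervals that excluded no difference. The share of all genes that were higher there was not counted, and Ogn did not exceed the collagen sum in PD1 KO. Nor was the rise particular to this list. In fibroblast-rich spots of the same bin every member was higher in both sections, Fmod by 1.70-fold in PD1 KO and 2.08-fold in PD1 Het.

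Spots rich in epicardial mesothelium markers such as Msln and Upk3b showed a contrast between members that lie near each other on chromosome 1. Fmod was higher in them by a log2 ratio of 3.46 in PD1 KO and 2.74 in PD1 Het. Prelp was at -0.72 in PD1 KO and 0.16 in PD1 Het. Within the highest collagen bin of PD1 KO, Prelp had 21.4 CPM in epicardial marker-rich spots and 49.6 CPM in the others. Fmod was 2.85-fold higher there, and Dcn (0.842-fold) and Lum (0.778-fold) were lower too, so the contrast was not particular to the 2 neighbours. In that bin of PD1 Het Prelp had 38.8 CPM in such spots and 49.9 CPM in the others, a log2 ratio of -0.36 (-1.18 to 0.38) that spanned no difference. Fmod was at 3.79-fold there, Dcn at 0.883-fold and Lum at 1.09-fold. Macrophage marker-rich spots were higher in Fmod (2.28 in PD1 KO and 3.02 in PD1 Het) and Bgn (1.63 and 1.66), and 65 of these spots in PD1 KO and 49 in PD1 Het were in the highest collagen bin. Within that bin Fmod was 1.017-fold in macrophage-rich over other spots of PD1 KO, with a log2 interval of -0.24 to 0.29, and 2.97-fold in PD1 Het, with a log2 interval of 1.096 to 2.05.

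**Figure D5:**
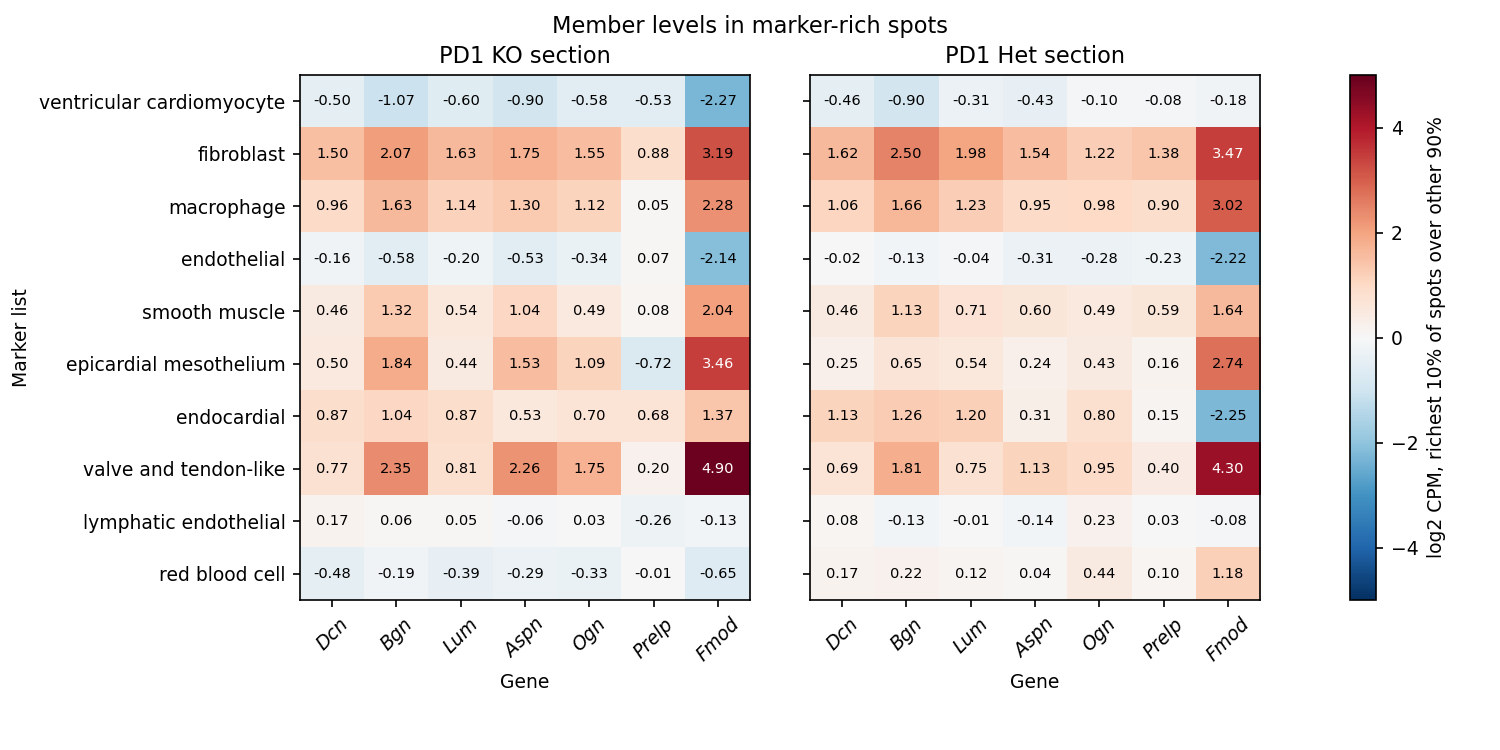
Log2 CPM of each member in the 10% of spots richest in each of 10 marker lists over the other 90%, for the PD1 KO section (left) and the PD1 Het section (right); red is higher in the marker-rich spots. Fmod reaches 4.90 and 4.30 for valve and tendon genes, and fibroblast-rich spots are above 0 for every member.

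The genes whose spot-to-spot pattern was most like each member were ranked by the lower of the 2 sections' Pearson correlations, on log CPM across 851 PD1 KO and 811 PD1 Het spots, among 2915 genes. All values share library and depth, and are given as descriptions. Col3a1 led for Dcn (0.45), Lum (0.47) and Bgn (0.45), followed for each by Sparc, a collagen-binding matrix protein. Col1a2 led for Fmod (0.37), followed by Sparc and by Nppa (0.33), the natriuretic peptide gene of atrial and stressed muscle. Postn, the periostin gene of activated fibroblasts, led for Aspn (0.30), followed by Fn1, Eln and Mmp2. Igfbp7 led for Ogn (0.24). Prelp was closest to Mfap5 (0.16), Cd248, Islr, S100a6 and Clec3b, with Mfap5 and Clec3b being fibroblast genes. Among these named genes its highest value in a section was 0.207. Between members, Dcn and Lum correlated at 0.51 in PD1 KO and 0.30 in PD1 Het, and Prelp with Fmod at -0.05 and 0.08.

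By position, 6 of the 7 members lie in 3 clusters of family genes on GRCm38. Dcn (97479609 to 97518143) and Lum (97565128 to 97572703) lie beside Kera and Epyc on chromosome 10, and Prelp and Fmod lie beside Optc on chromosome 1. Aspn (49544443 to 49567565) and Ogn (49608046 to 49624501) lie on either side of Omd on chromosome 13, next to Ecm2, and Bgn is on chromosome X (73483602 to 73495933). Neighbours were not expressed alike. Kera had 1 UMI in PD1 KO and 0 in PD1 Het, Epyc 7 and 3, Optc 1 and 4, and Omd 30 and 15, whereas Ecm2 had 845 and 312. Aspn and Ogn lie inside Cenpp, a centromere gene on the opposite strand with 234 UMIs in PD1 KO and 85 in PD1 Het, and the sources used here do not say whether counting used strand.

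Of 11 other family members, 5 reached 30 UMIs summed across the sections, and 0 of these were 1.5-fold from the median gene in either direction. Ecm2 was the most abundant, at 35.9 CPM in PD1 KO and 24.3 CPM in PD1 Het (0.23). Values in brackets after the levels of a gene are, here and below, its relative log2 ratio. Tsku, a secreted relative, was at 5.10 and 4.53 CPM, and Podn at 4.08 and 3.90 CPM. The median relative log2 ratio of the 5 was -0.16.

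Enzymes that build the sulphated chains were counted next. Of 21 chondroitin and dermatan sulphate genes, 1 was 1.5-fold or more above the median gene and 2 were below, beside 5.5% and 3.3% of all genes. Their median relative log2 ratio was 0.00. Fam20b, which phosphorylates the linker xylose, had 24.8 CPM in PD1 KO and 11.8 CPM in PD1 Het (0.74). The linker enzymes B3galt6 (5.31 and 6.71 CPM, -0.67) and B3gat3 (32.4 and 39.7 CPM, -0.63) were the ones below. Chpf, a chain-polymerising factor, was the most abundant, at 59.5 and 65.9 CPM (-0.48). Of 8 keratan sulphate genes 0 were past the limit in either direction, beside the same 5.5% and 3.3% of all genes, with a median of -0.07.

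Among 18 genes for collagen crosslinking and fibril assembly, 2 were above and 1 below, beside 5.5% and 3.3% of all genes. Their median was -0.13. Plod2, a collagen lysyl hydroxylase, had 27.8 CPM in PD1 KO and 10.7 CPM in PD1 Het (1.05), and Thbs1, which activates latent TGF-beta, had 33.8 and 11.5 CPM (1.22). Tnxb, the tenascin-X gene, was the one below, at 81.3 CPM in PD1 KO and 130 CPM in PD1 Het (-1.003), and was chosen for mention after its value was seen. Serpinh1, the collagen chaperone, had 632 and 540 CPM (-0.10). Lox, whose enzyme works with fibromodulin, was also singled out afterwards and stood at 41.5 and 34.3 CPM (-0.06).

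Of 18 ligands and receptors of the family, 2 were above and 0 below, beside 5.5% and 3.3% of all genes. Their median was -0.02. Egfr, a decorin receptor, had 8.42 CPM in PD1 KO and 4.29 CPM in PD1 Het (0.64), and Bmp2 had 53 UMIs in PD1 KO and 14 in PD1 Het (0.71, -0.16 to 1.68). Bmp2 had too few UMIs to enter the share of all genes. Lrp1, an endocytic receptor, was at 100 CPM in PD1 KO and 93.8 CPM in PD1 Het (-0.23) and Kdr, the VEGF receptor, at 140 and 122 CPM (-0.13). Of 10 proteases and inhibitors, 1 was above and 1 below, beside 5.5% and 3.3% of all genes. Mmp12, the macrophage elastase, had 227 UMIs in PD1 KO and 12 in PD1 Het (3.03, 2.20 to 4.01), Mmp14 had 159 and 114 (-0.73), and Mmp2, a gelatinase, had 230 and 212 CPM (-0.21). The median of the 10 was 0.01. Macrophage markers summed to 405 CPM in PD1 KO and 293 CPM in PD1 Het, a relative log2 ratio of 0.14.

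Of 11 wound matrix genes other than collagens, 5 were above the limit and 0 below, beside 5.5% and 3.3% of all genes tested. Their median relative log2 ratio was 0.54, against 0 over all genes and -0.17 over the 7 proteoglycans. Thbs1, listed here too, was one of the 5. Cilp, a matrix protein of fibroblasts, had 67.7 CPM in PD1 KO and 23.0 CPM in PD1 Het (1.23). The other 3, named after their values were seen, were Cthrc1 (0.95), Ccn2 (0.85) and Tnc (0.77). Postn had 929 and 586 CPM (0.33), and Sparc had 1636 and 1331 CPM (-0.03). Of the 5 hyaluronan genes with enough UMIs, 0 were above and 1 was below, beside 5.5% and 3.3% of all genes tested, with a median of 0.25. The one below was the hyaluronan synthase Has3, with 28 UMIs in PD1 KO and 20 in PD1 Het (-0.72, -1.60 to 0.18). Has3 had too few UMIs to enter the share of all genes. Versican (Vcan) was at 40.9 and 30.2 CPM (0.11).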

How the data were processed

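Each section's deposited matrix holds UMI counts per gene and spot, made by the authors, per the file headers, in Space Ranger 1.1.0, and builds mm10 and GRCm38 are named by the submitters' processing notes. Alignment settings, annotation release and the rule for keeping spot barcodes were not given in the sources used here. Spot positions were not used here. Spots needed at least 500 UMIs. UMIs were summed per section or group of spots and scaled to CPM. Ratios have exact conditional Poisson 95% intervals and shares have Clopper-Pearson 95% intervals, for counting error only. Intervals of shares of spots treat spots as independent draws. The zero limit is 3 counts. Analysis used Python 3.11.15, numpy 2.4.6, scipy 1.17.1 and pandas 2.3.3, tested on simulated data. Alternatives included edgeR 4.0.16 TMM factors, median-of-ratios factors, other UMI minima, 10 bins and a second thinning depth of 5000. All 7 members were named, and in each list up to 4 genes with 30 UMIs or more, namely the 2 most abundant and the 2 furthest from the median gene. The likeness ranking used genes with at least 500 UMIs in each section. Members and lists were chosen with earlier results of these data known. The symbol Ccl21a matched several IDs and was not used.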

Additional observations from a re-analysis of the deposited data

Results flagged for a closer look

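Members whose levels moved in opposite directions in the 2 sections, between the 10% of spots richest in a marker list and the other spots, are given as log2 ratios with counting intervals. The difference between the sections was not tested in any of them. In endocardial marker-rich spots Fmod was at 1.37 (1.08 to 1.65) in PD1 KO and -2.25 (-4.14 to -0.86) in PD1 Het, where the marker-rich spots held 4 Fmod UMIs. With the richest 5% of spots the PD1 KO value was -0.37 (-1.06 to 0.24), and with the richest 20% the PD1 Het value was 0.05 (-0.52 to 0.58), so the direction in both sections depended on the share of spots taken. In red blood cell marker-rich spots 4 members were lower in PD1 KO and higher in PD1 Het. Fmod was at -0.65 (-1.11 to -0.22) in PD1 KO and 1.18 (0.64 to 1.68) in PD1 Het. Dcn was at -0.48 (-0.58 to -0.39) in PD1 KO and 0.17 (0.06 to 0.28) in PD1 Het, Ogn at -0.33 (-0.50 to -0.16) and 0.44 (0.23 to 0.65), and Bgn at -0.19 (-0.29 to -0.09) and 0.22 (0.10 to 0.34).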

How the results depend on the processing

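No paired analysis was possible because each genotype has 1 section and the labels give no replicate numbers, and no section could be left out. The cause of the shifts below was not tested. The count of members that lay 1.5-fold or more above the median gene, 2, was 1 with the mean of within-bin ratios and 0 without spots rich in valve and tendon genes, with or without Thbs4 in the list, although Fmod was still at 0.58 without Thbs4. Over 12 alternatives Fmod ranged between 0.39 and 0.97 and Aspn between 0.39 and 0.94. The family ratio of -0.13 was 0.21 by plain CPM, 0.028 by CPM without mitochondrial genes and -0.087 with median-of-ratios factors. It was -0.068 with the median over genes of at least 1000 UMIs and -0.10 as the mean of within-bin ratios. Without spots rich in valve and tendon genes it was -0.18 or, with Thbs4 ignored, -0.16. The family's log2 gradient, 2.15 in PD1 KO and 2.09 in PD1 Het, was 2.77 and 2.76 with 10 bins, and 2.01 and 1.88 without mitochondrial genes. In PD1 Het it was also 2.22 with common collagen limits, 1.84 after thinning and 2.02 with at least 5000 UMIs per spot. Common limits gave 3 instead of 5 values within bins that lay 1.5-fold or more above, and 8 instead of 1 below, of 35 (7 members in 5 bins), and turned Fmod in the fourth bin to -0.88. Set against the median gene of each bin, also added after seeing the data, 0 values lay below with bins of equal size, and common limits gave 3 above and 4 below, with Fmod at -0.83. The share of all genes past these limits within bins was not counted, so these counts have no background. Fmod in the poorest common bin, counted as above, rested on 12 UMIs in PD1 KO and 5 in PD1 Het. Fmod in smooth muscle spots of PD1 Het turned to -0.12, and in endocardial spots of PD1 KO to -0.37, with the richest 5% of spots. With Col1a1, Col1a2 and Col3a1 as the only collagens, the family had 34.3 UMIs per 100 in PD1 KO and 42.8 in PD1 Het. Without thinning, 6 members instead of 2 had shares of spots apart, and the share of all genes was not counted. Of the planned settings of these main values, 48 stayed close and 16 moved. Of the settings added afterwards, 3 stayed close and 9 moved. The more detailed values, for single members, bins and marker lists, were less steady. Of their planned settings 250 stayed close, 210 moved and 2 reversed, and of those added afterwards 76 stayed close, 70 moved and 2 reversed. Fmod has few UMIs in PD1 Het, 185, which limits its values in the lower bins.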
